A study of Mus musculus with 9 samples.

Results

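The type I interferon-induced effector genes examined here are 42 genes that mammalian cells are known to switch on when they sense interferon alpha or beta. They were taken by symbol from a list of names, and all 42 were found among the 59445 features of the deposited expression table. The samples were F4/80+ CD11b+ macrophages, sorted by flow cytometry from liver non-parenchymal cells of male C57BL/6 mice 24 hours after a single intraperitoneal dose of carbon tetrachloride (CCl4), a liver toxin, at 0.6 mg/kg as labelled. Both genotypes received it, 5 MAGL Mye-/- mice (libraries S8, S9, S10, S11 and S12) and 4 MAGL fl/fl controls (libraries S1, S3, S4 and S5), so every mouse analysed here had been injured. MAGL is monoacylglycerol lipase, the Mgll product that cleaves the endocannabinoid 2-arachidonoylglycerol, and fl/fl denotes loxP-flanked alleles. The sources used here do not give the Cre driver behind the Mye-/- label. Mice of S8 and S12 were 11 weeks old and those of S9, S10 and S11 were 10 weeks old, whereas all 4 fl/fl mice were 11 weeks old.

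Type I interferons bind the receptor pair IFNAR1 and IFNAR2, whose kinases JAK1 and TYK2 phosphorylate STAT proteins. These join IRF9 in a complex, ISGF3, that binds the interferon-stimulated response element (ISRE) in the promoters of their target genes. The targets include proteins that block virus entry, translation, replication and release, and brakes such as USP18 that end the signal. In the liver, macrophages are among the cells that both make and respond to these interferons during injury and infection.

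The promoters of the members were searched for the core letters of this element, and a match alone does not show a working site. RefSeq promoter windows (GRCm38.p6, the assembly of mm10), from 250 bases before to 50 bases after each gene's start, were given for 33 of the 42 members. The ISRE core GAAANNGAA, searched on both strands, was present in 19 of those 33 members (57.6%), against 9.76% of the 27025 genes with a window, and 11 of the 19 held at least 2 overlapping or separate matches. The core of the gamma-activated sequence, TTCNNNGAA, which reads the same on both strands, was present in 6 of the 33 members (18.2%), against 9.55% of all genes. The following 60-base stretches, each 5′ to 3′ on the gene's strand with ISRE core matches in capitals and overlapping matches run together, are shown because their genes are described below, among them near copies (Ifit3 and Ifit3b, Oas1a and Oas1g) and Cxcl10, which has the lowest log2 fold change of the members. A match read as TTC...TTTC is the core on the opposite strand.
Ifit1, chr19:34640779-34640838, plus strand: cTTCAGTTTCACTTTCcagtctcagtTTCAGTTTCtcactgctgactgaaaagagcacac
Ifit3, chr19:34583401-34583460, plus strand: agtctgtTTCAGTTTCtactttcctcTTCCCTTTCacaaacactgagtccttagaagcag
Ifit3b, chr19:34607797-34607856, plus strand: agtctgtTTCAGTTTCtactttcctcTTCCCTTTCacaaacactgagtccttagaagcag
Isg15, chr4:156200851-156200910, minus strand: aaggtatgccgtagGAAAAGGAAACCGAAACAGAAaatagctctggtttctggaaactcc
Oas1a, chr5:120907506-120907565, minus strand: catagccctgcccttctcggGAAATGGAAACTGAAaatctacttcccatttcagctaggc
Oas1g, chr5:120887592-120887651, minus strand: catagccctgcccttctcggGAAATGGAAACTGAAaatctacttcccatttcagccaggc
Rsad2, chr12:26456538-26456597, minus strand: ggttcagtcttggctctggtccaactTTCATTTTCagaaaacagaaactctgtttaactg
Cxcl10, chr5:92349069-92349128, minus strand: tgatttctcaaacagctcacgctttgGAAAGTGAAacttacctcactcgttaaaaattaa
The match nearest the gene's start began 84 bases before it in Ifit1, 102 in Ifit3, 134 in Ifit3b, 66 in Isg15, 14 in Oas1a, 12 in Oas1g, 119 in Rsad2 and 213 in Cxcl10. The stretches of Ifit3 and Ifit3b differed at 0 of 60 letters and those of Oas1a and Oas1g at 1. No ISRE core match lay in the 2 windows of Ifit2, which says only that these letters are not there.

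Values are normalized reads, that is read counts that the authors divided by 1 size factor per library, without correction for gene length. Each log2 fold change is the Mye-/- mean minus the fl/fl mean of log2(value + 1), and limma gave their standard errors (SE) and their p-values, with Benjamini-Hochberg adjustment over the 15288 features tested. Means are given ± SD over 5 Mye-/- and 4 fl/fl libraries. Libraries held 33383559 to 46489349 reads, 14240 to 16802 features had at least 1 read, and Spearman correlations across features between libraries ran from 0.918 to 0.953. The labels do not say how libraries map to mice beyond their names, and p-values assume 1 mouse per library. In sorted bulk RNA, fewer cells of a type and less RNA per cell cannot be told apart. Mgll itself was near the detection limit, with 30.4, 46.6, 5.93, 42.7 and 0 normalized reads in Mye-/- S8 to S12, against 18.6, 0, 106.5 and 22.8 in fl/fl, and so did not check the genotype labels (limma adjusted p = 0.985).

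Most interferon-induced effector genes had a higher mean in Mye-/- macrophages, but limma and edgeR called no single member at an adjusted p under 0.05, and DESeq2 called Ifit2 alone. The log2 fold change was positive for 38 of 42 members, with a median of 0.62 (1.54-fold) and a range of -0.75 to 2.29, beside a median of 0.06 over all features tested, of which 54.6% were positive. At an unadjusted p under 0.05, 22 members were higher in Mye-/-, beside 6.38% of all features, and 0 were lower, beside 4.13% of all features. The members were chosen with earlier results of these data known, so such counts describe the list and are no independent support. At an adjusted p under 0.05, limma called 0 of the 42 members, beside 0.0196% of all features called higher, and the smallest adjusted p of a member was 0.218, shared by Ifit2, Rsad2 and Mx1. In 3 members all 5 Mye-/- values lay above all 4 fl/fl values, beside 1.7% of all features. On the recovered whole reads, DESeq2 called 1 member higher (Ifit2, adjusted p = 0.0409), beside 0.595% of all features, and 19 were higher at an unadjusted p under 0.05. edgeR called 0 members, with 20 higher and 1 lower (Cxcl10) at an unadjusted p under 0.05. For the 36 members that averaged at least 500 normalized reads the median log2 fold change was 0.57, beside -0.00 for the 7198 features of that abundance. All 42 members passed the filter of 10 normalized reads in at least 4 libraries, 40 of them in all 9. Ifi44 and Ifit3b, the other 2, reached 10 in only 2 fl/fl libraries each, and their fold changes depend on the pseudocount.

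These counts depended on single libraries. Without S1 the number of members higher at an unadjusted p under 0.05 was 14. Without Mye-/- S8 or fl/fl S1 the median log2 fold change was 0.44. Without both S1 and S3 (a setting added after the values were seen) the number was 9 and the median 0.29. S1 and S3 had the lowest typical member values of all libraries (-0.63 and -0.41, the medians described below). Leaving out both was therefore bound to shrink most fold changes, and no matching pair of Mye-/- libraries was left out. The number of members without overlap was 12 without fl/fl S5, 7 without Mye-/- S9 and 5 without Mye-/- S12 or fl/fl S1. The number at an unadjusted p under 0.05 was 12 in a fit that included each library's number of detected features and 11 without limma's intensity trend. The matching shares of all features were not counted at these settings. With fewer libraries, the groups separate fully more easily for any feature, so larger counts without overlap are no sign of stronger separation.

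**Figure D1:**
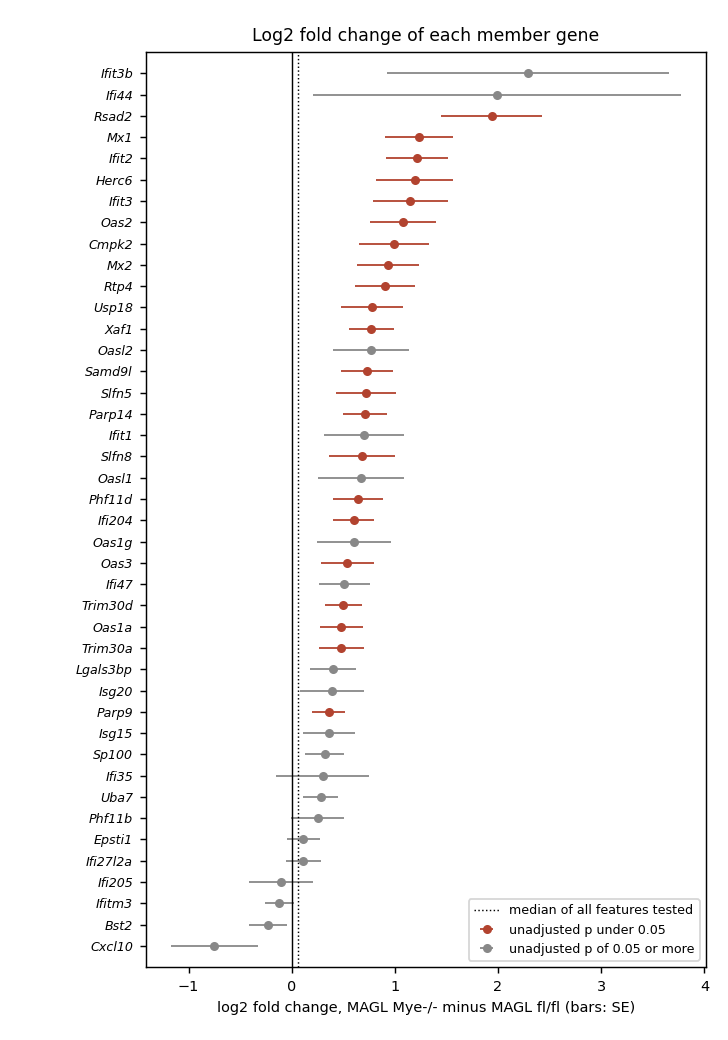
Log2 fold change (x axis, Mye-/- minus fl/fl) of each of the 42 members (y axis), with bars for the SE. Red marks the 22 members at an unadjusted p under 0.05, and the dotted line marks the median of all features tested, 0.06. All but 4 points lie right of 0, and Ifit3b and Ifi44, the low-abundance members, have the widest bars.

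The IFIT genes, which sit side by side on chromosome 19 and encode tetratricopeptide-repeat proteins that bind viral RNA or hinder its translation, had the highest median log2 fold change of the families, 1.18, with 4 of 4 positive and 2 at an unadjusted p under 0.05. Ifit2 (chr19:34550694-34576534, plus strand, mm10) had 3071, 1261, 2223, 1289 and 1238 normalized reads in Mye-/- S8 to S12, against 873, 408, 1053 and 754 in the fl/fl libraries S1, S3, S4 and S5. The groups did not overlap, and S8 and S10 stood above the other Mye-/- libraries. The log2 fold change was 1.21 ± 0.30 (SE, limma adjusted p = 0.218), and it kept a positive sign in every alternative run, from 0.92 to 1.42.

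Ifit3 (chr19:34583527-34589036, plus strand), which stabilises IFIT1 on viral RNA in human cells, had 1995, 525, 1512, 828 and 940.4 normalized reads in Mye-/- S8 to S12, against 398, 411, 335 and 883 in fl/fl. Mye-/- S9 and S11 lay below fl/fl S5, so the groups overlapped, and the log2 fold change was 1.15 ± 0.36 (SE, adjusted p = 0.295). Ifit1, which blocks translation of RNA without a methylated cap, averaged 855 ± 475 in Mye-/- and 506 ± 233 in fl/fl (log2 fold change 0.70 ± 0.39 SE). Ifit3b, the near copy of Ifit3, was low, at 27.4 to 248.5 in Mye-/- and 0 to 181 in fl/fl. Of the 50-letter words of Ifit3 transcripts, 51.2% also occur in Ifit3b, so the split of reads between the pair is uncertain.

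The OAS genes encode synthetases of 2-5A, the second messenger that turns on RNase L, and close relatives of these enzymes. All 6 were positive, 3 of them at an unadjusted p under 0.05, with a median log2 fold change of 0.63. Oas2 (chr5:120730333-120749853, minus strand) had 10256, 8034, 10650, 5924 and 6240 normalized reads in Mye-/- S8 to S12, against 1446, 5232, 3885 and 6933 in the fl/fl libraries S1, S3, S4 and S5. Only fl/fl S5 reached into the Mye-/- range, and fl/fl S1 was far below the rest. Its log2 fold change was 1.08 ± 0.32 (SE, limma adjusted p = 0.256).

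Oas1a (chr5:120896256-120907525, minus strand), an active synthetase, had 8170, 4735, 8284, 4733 and 5025 normalized reads in Mye-/- S8 to S12, against 3633, 3114, 5247 and 5638 in fl/fl. Just S8 and S10 exceeded the highest fl/fl value, and the log2 fold change was 0.48 ± 0.21 (SE, adjusted p = 0.438). Its near copy Oas1g, whose promoter stretch differs at 1 letter, averaged 454 ± 98.6 in Mye-/- and 303 ± 86.4 in fl/fl, a log2 fold change of 0.60 ± 0.36 (SE). Of the 50-letter words of Oas1a, 57.6% also occur in Oas1g, so these values are uncertain. Oas3, the synthetase of long 2-5A chains in human cells, averaged 4257 ± 1116 in Mye-/- and 3113 ± 1449 in fl/fl (log2 fold change 0.54). It turned to -0.06 without fl/fl S1 and S3. The OAS-like genes Oasl1, which in mice restrains translation of Irf7, and Oasl2 had log2 fold changes of 0.67 ± 0.42 and 0.77 ± 0.37 (SE), and Oasl2 was -0.09 without fl/fl S1 and S3.

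The MX genes encode dynamin-like GTPases that trap viral nucleoproteins, and both were positive at an unadjusted p under 0.05, with a median log2 fold change of 1.08. Mx1 (chr16:97447035-97462908, minus strand) had 2967, 1120, 2072, 1662 and 1113 normalized reads in Mye-/- S8 to S12, against 346, 946, 693 and 1103 in the fl/fl libraries S1, S3, S4 and S5. The groups did not overlap, although S9 and S12 lay just above fl/fl S5. The log2 fold change was 1.23 ± 0.33 (SE, limma adjusted p = 0.218). The C57BL/6 Mx1 allele is known to make no working protein. The values of both MX genes here are of transcripts, and do not show a working protein. Mx2 averaged 1835 ± 1001 in Mye-/- and 908 ± 275 in fl/fl (log2 fold change 0.93 ± 0.30 SE, adjusted p = 0.295), with 4 of 5 Mye-/- libraries above every fl/fl library.

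The ISG15 system couples the ubiquitin-like protein ISG15 to other proteins. Uba7 encodes its activating enzyme, Herc6 the main ligase in mice, and Usp18 the protease that removes it and also damps IFNAR signalling. The 4 genes had a median log2 fold change of 0.57, with Herc6 and Usp18 at an unadjusted p under 0.05. Herc6 (chr6:57580992-57665136, plus strand) had 893, 1040, 1117, 861 and 367 normalized reads in Mye-/- S8 to S12, against 340, 222, 317 and 629 in the fl/fl libraries S1, S3, S4 and S5. Mye-/- S12 lay within the fl/fl range and the other 4 above it. The log2 fold change was 1.19 ± 0.37 (SE, limma adjusted p = 0.277).

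Usp18 (chr6:121245904-121270917, plus strand) had 2360, 889, 2462, 1565 and 1015 normalized reads in Mye-/- S8 to S12, against 592, 896, 1072 and 1094 in fl/fl. S8, S10 and S11 were above every fl/fl library, while S9 and S12 were within their range (log2 fold change 0.78 ± 0.30 SE, adjusted p = 0.366). Isg15 (chr4:156199424-156200818, minus strand), with 3 overlapping core matches in its promoter window, had a smaller log2 fold change. It had 5010, 1593, 3802, 3105 and 2253 normalized reads in Mye-/- S8 to S12, against 2228, 2070, 2717 and 2113 in fl/fl. Its fl/fl values were close together, whereas the highest Mye-/- value was 3.14 times the lowest (log2 fold change 0.36 ± 0.25 SE, adjusted p = 0.631). Uba7 averaged 7141 ± 1743 in Mye-/- and 5784 ± 866 in fl/fl (log2 fold change 0.28). The Uba7 feature also spans Gm20661 and other small genes.

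**Figure D2:**
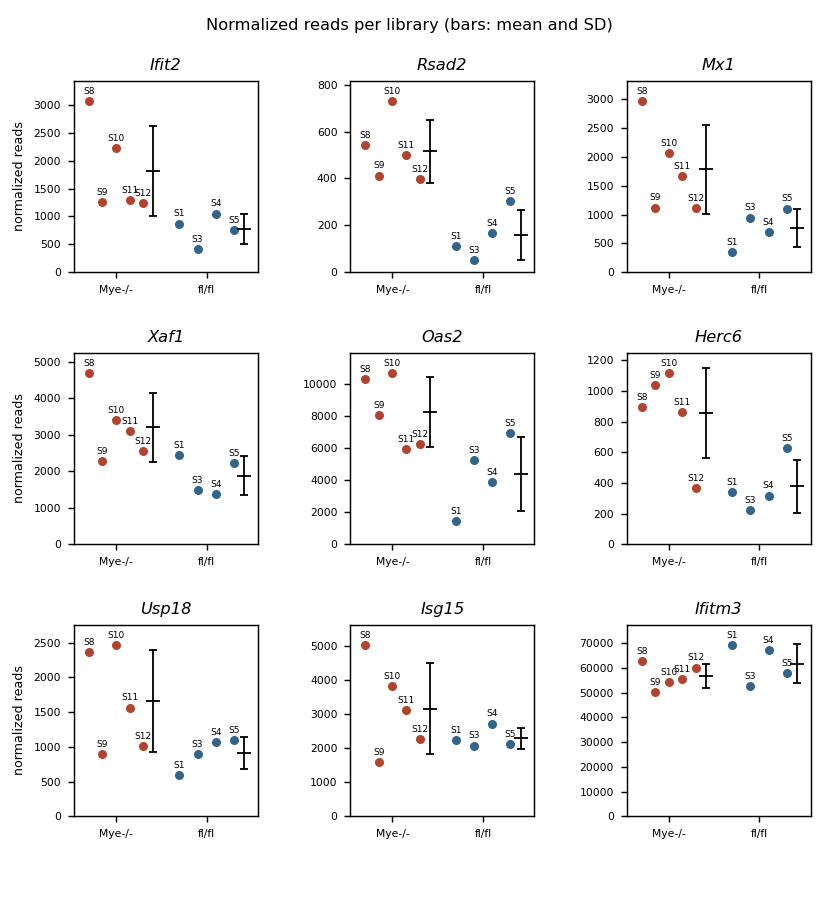
Normalized reads (y axis, linear, from 0) of 9 members in each library, Mye-/- in red and fl/fl in blue, with bars for mean and SD. Ifit2, Rsad2 and Mx1 show no overlap between genotypes, Herc6 overlaps through S12 alone, and Ifitm3 shows both groups at the same height.

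Of the 8 other antiviral effectors, 6 were positive and 5 reached an unadjusted p under 0.05, with a median log2 fold change of 0.75. Rsad2 (chr12:26442743-26456452, minus strand), which encodes viperin, a radical SAM enzyme that makes a chain-terminating nucleotide, had 543, 412, 729.9, 499 and 397 normalized reads in Mye-/- S8 to S12, against 111, 51.3, 166 and 305 in the fl/fl libraries S1, S3, S4 and S5. Every Mye-/- library was above every fl/fl library. Its log2 fold change, 1.94 ± 0.49 (SE, limma adjusted p = 0.218), was the largest among members that reached 10 in all 9 libraries, and ran from 1.16 without fl/fl S1 and S3 to 2.34 without fl/fl S5. Cmpk2, the neighbour of Rsad2 that makes the nucleotide viperin works on, averaged 702.5 ± 235 in Mye-/- and 352 ± 107 in fl/fl (log2 fold change 0.99 ± 0.34 SE, adjusted p = 0.322).

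Xaf1 (chr11:72301629-72313733, plus strand), a partner of the apoptosis inhibitor XIAP, had 4685, 2276, 3392, 3103 and 2545 normalized reads in Mye-/- S8 to S12, against 2431, 1476, 1377 and 2224 in fl/fl. Mye-/- S9 alone lay under the highest fl/fl value (log2 fold change 0.77 ± 0.22 SE, limma adjusted p = 0.253). Rtp4, an interferon-induced transmembrane protein, averaged 3729 ± 1657 in Mye-/- and 1932 ± 744 in fl/fl (0.90 ± 0.29 SE, adjusted p = 0.295). Samd9l, an inhibitor of translation and growth, averaged 10579 ± 3660 in Mye-/- and 6667 ± 3091 in fl/fl (0.73 ± 0.25 SE, adjusted p = 0.332). Isg20, an exonuclease, averaged 878 ± 309 in Mye-/- and 685 ± 271 in fl/fl (0.39 ± 0.31 SE).

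The 2 remaining antiviral effectors were not higher. Ifitm3, which stops viruses from fusing with endosomes, averaged 56646 ± 4891 normalized reads in Mye-/- and 61761 ± 7852 in fl/fl, a log2 fold change of -0.12 ± 0.14 (SE, limma adjusted p = 0.807). Bst2, the tetherin that holds budding virus at the cell surface, averaged 4117 ± 869 in Mye-/- and 4839 ± 1100 in fl/fl (-0.23 ± 0.18 SE, adjusted p = 0.699). Together with Ifi205 and Cxcl10, these were the 4 members in which no Mye-/- library exceeded the highest fl/fl library.

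Both TRIM30 genes were positive at an unadjusted p under 0.05 (median log2 fold change 0.49). Trim30d (chr7:104470017-104507851, minus strand), a neighbour of the Toll-like receptor brake Trim30a, had 5437, 3340, 4461, 3760 and 3322 normalized reads in Mye-/- S8 to S12, against 2672, 2156, 2993 and 3663 in the fl/fl libraries S1, S3, S4 and S5. Mye-/- S9 and S12 were under fl/fl S5 and the other 3 above it (log2 fold change 0.50 ± 0.18 SE, adjusted p = 0.337). Trim30a averaged 4421 ± 1120 in Mye-/- and 3272 ± 1221 in fl/fl (0.48 ± 0.22 SE), and was at 0.00 without fl/fl S1 and S3.

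The PHF11 genes, named for a PHD finger, had a median log2 fold change of 0.45. Phf11d had 1802, 1432, 942, 1521 and 1465 normalized reads in Mye-/- S8 to S12, against 1274, 719, 689 and 1037 in fl/fl, so S10 alone lay within the fl/fl range (0.64 ± 0.24 SE, limma adjusted p = 0.356). The table's Phf11d feature (chr14:59347409-59440880, minus strand) also holds Phf11c and Setdb2, so the value belongs to that locus. Phf11b averaged 2300 ± 995 in Mye-/- and 1868 ± 588 in fl/fl (0.25 ± 0.26 SE), and 47.0% of its 50-letter words occur in other genes, mainly Phf11a and Phf11c.

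The Schlafen genes, growth and translation regulators of immune cells, were both positive at an unadjusted p under 0.05 (median log2 fold change 0.70). Slfn5 (chr11:82952094-82964850, plus strand) had 7637, 3154, 4202, 3070 and 3249 normalized reads in Mye-/- S8 to S12, against 1266, 2086, 3370 and 3843 in the fl/fl libraries S1, S3, S4 and S5. S8 was the highest and S1 the lowest of all libraries, and S9, S11 and S12 lay within the fl/fl range (0.72 ± 0.29 SE, limma adjusted p = 0.405). Slfn8 averaged 1898 ± 862 in Mye-/- and 1204 ± 536 in fl/fl (0.68 ± 0.32 SE, adjusted p = 0.470). Without fl/fl S1 and S3 the log2 fold changes were 0.15 for Slfn5 and 0.18 for Slfn8.

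Among the HIN-200 and nuclear body genes, Ifi204 (chr1:173747290-173766944, minus strand), which encodes a DNA-binding protein of the family that senses DNA in macrophages, had 10257, 5242, 6057, 6463 and 6324 normalized reads in Mye-/- S8 to S12, against 3303, 3872, 4649 and 6434 in the fl/fl libraries S1, S3, S4 and S5. S8 stood above all others, S11 lay just above fl/fl S5, and the other 3 Mye-/- libraries lay below it (log2 fold change 0.60 ± 0.20 SE, limma adjusted p = 0.318). Ifi205, its relative, did not follow, at 991 ± 334 in Mye-/- and 1089 ± 479 in fl/fl (-0.10 ± 0.31 SE), and its sign turned in 6 of 21 alternatives. Sp100, a scaffold of PML nuclear bodies, averaged 8108 ± 1864 in Mye-/- and 6544 ± 1804 in fl/fl (0.32 ± 0.19 SE).

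Both PARP genes, which encode mono-ADP-ribosyltransferase family proteins, were positive at an unadjusted p under 0.05. Parp14 (chr16:35832878-35871500, minus strand) had 7976, 4382, 6585, 5773 and 5362 normalized reads in Mye-/- S8 to S12, against 2377, 3046, 4259 and 5405 in the fl/fl libraries S1, S3, S4 and S5. S9 and S12 lay under fl/fl S5 (log2 fold change 0.71 ± 0.21 SE, limma adjusted p = 0.267). Parp9, the partner of the ubiquitin ligase gene Dtx3l that it overlaps on the opposite strand, averaged 3414 ± 660.3 in Mye-/- and 2640 ± 328 in fl/fl (0.36 ± 0.16 SE, adjusted p = 0.453).

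The 6 remaining interferon-induced genes were all positive in sign, with a median log2 fold change of 0.35 and 0 at an unadjusted p under 0.05. Ifi47, an immunity-related GTPase, had 11027, 4157, 6226, 5860 and 4657 normalized reads in Mye-/- S8 to S12, against 3082, 4344, 3343 and 6967 in the fl/fl libraries S1, S3, S4 and S5. S8 alone exceeded fl/fl S5 (0.51 ± 0.25 SE, limma adjusted p = 0.485), and the table's Ifi47 feature (chr11:49050733-49135387) also spans Tgtp2 and Olfr56. Lgals3bp (chr11:118392749-118401961, minus strand), a secreted galectin-binding glycoprotein, had 7316, 2754, 6874, 5385 and 5528 normalized reads in Mye-/- S8 to S12, against 4141, 3230, 4388 and 4357 in fl/fl. Mye-/- S9 was below all fl/fl libraries and the other 4 Mye-/- libraries above all of them (0.40 ± 0.22 SE, adjusted p = 0.536). Ifi27l2a, Epsti1 and Ifi35 had log2 fold changes of 0.11, 0.11 and 0.30, and the rarely detected Ifi44 ran from 0 to 114 in Mye-/- and from 0 to 45.7 in fl/fl.

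**Figure D3:**
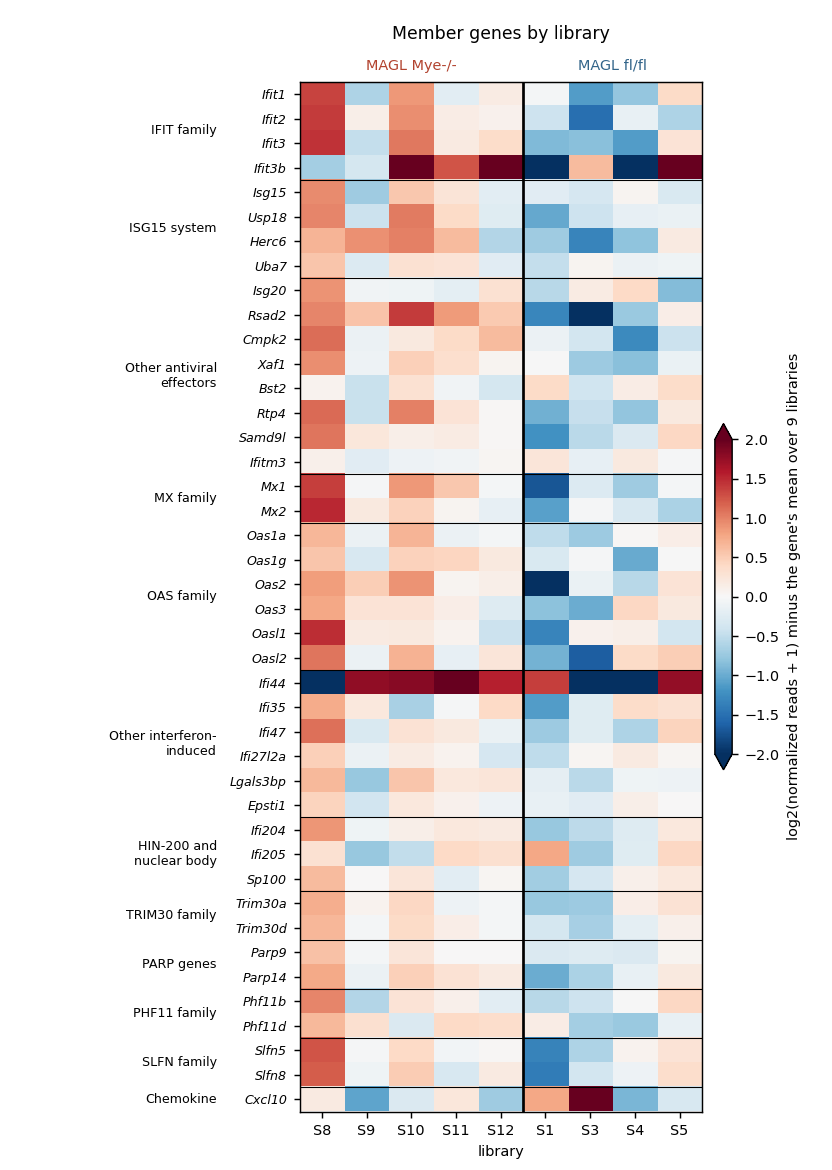
Each member (rows, grouped by family or role) in each library (columns), as the log2 value minus the gene's mean over 9 libraries, red above and blue below the mean. S8 is red for nearly all rows, S1 and S3 are mostly blue, and S5 resembles the Mye-/- libraries more than the other fl/fl ones. Cxcl10, in the last row, is highest in fl/fl S3.

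Cxcl10 (chr5:92346641-92348890, minus strand), the chemokine that draws CXCR3-bearing T and NK cells and that interferon gamma and NF-kappaB also induce, had the lowest log2 fold change of the members. It had 2874, 1231, 2081, 2963 and 1552 normalized reads in Mye-/- S8 to S12, against 4360, 11125, 1347 and 2028 in the fl/fl libraries S1, S3, S4 and S5. The Mye-/- values lay inside the fl/fl range except S9, which was lowest of all, and fl/fl S3 was more than any other library. The log2 fold change was -0.75 ± 0.42 (SE, limma adjusted p = 0.549). Leaving out 1 library gave -1.19 (without fl/fl S4) to -0.18 (without fl/fl S3), and leaving out both fl/fl S1 and S3 gave 0.29.

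Members differed widely in level. Per kilobase of exon, Ifitm3 was the most abundant, at 83548 normalized reads per kb in Mye-/- and 91092 in fl/fl, followed by Ifi27l2a at 50085 in Mye-/- and 46168 in fl/fl. Bst2 had 4560 in Mye-/- and 5359 in fl/fl, and Isg15 4170 in Mye-/- and 3019 in fl/fl. The lowest was Ifi44, at 8.06 in Mye-/- and 3.28 in fl/fl. The 3 members highest per kb in fl/fl, Ifitm3, Ifi27l2a and Bst2, had log2 fold changes of -0.12, 0.11 and -0.23. Rsad2, Herc6, Ifit3b and Ifi44, the 4 lowest, had log2 fold changes of 1.94, 1.19, 2.29 and 1.99. Cmpk2, Oasl1, Oas1g and Ifi35, the next above them, had 0.99, 0.67, 0.60 and 0.30. Ifit3b and Ifi44 reached 10 in only 2 fl/fl libraries each, and their edgeR values were 1.02 and 1.29. The fold change subtracts the same fl/fl level that sets this order, so low fl/fl values favour high fold changes. Low levels also carry larger error and a larger part of the pseudocount, and the part of either in this order was not tested.

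Libraries within a genotype differed as a block. The median of the members' log2 values, each taken relative to its gene's mean over the 9 libraries, was 0.81, -0.11, 0.40, 0.16 and 0.03 in Mye-/- S8 to S12, against -0.63, -0.41, -0.18 and 0.16 in the fl/fl libraries S1, S3, S4 and S5. Over all features tested the same median lay between 0.00 and 0.11 in every library. S8 was the highest of all 9 libraries for 31 members, and S1 or S3 was the lowest for 27. Mye-/- S9 and S12 lay under fl/fl S5 on this measure, and S9 was the lowest Mye-/- library for 20 members. The number of members above the highest fl/fl value was 36 in S8, 29 in S10, 18 in S11, 11 in S12 and 9 in S9. The highest value over the lowest within a genotype had a median of 2.24 over 41 members in Mye-/- and of 2.25 over 40 members in fl/fl. The median log2 fold change between genotypes amounts to 1.54-fold. That is a difference of means, so it cannot be set against a range from lowest to highest. By age, S9, S10 and S11 were the 10-week-old mice, and the median log2 fold change was 0.79 in mice aged 11 weeks, with only 2 Mye-/- libraries of that age. A fit with an age term gives the same estimates by construction, since all fl/fl mice were 11 weeks old.

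**Figure D4:**
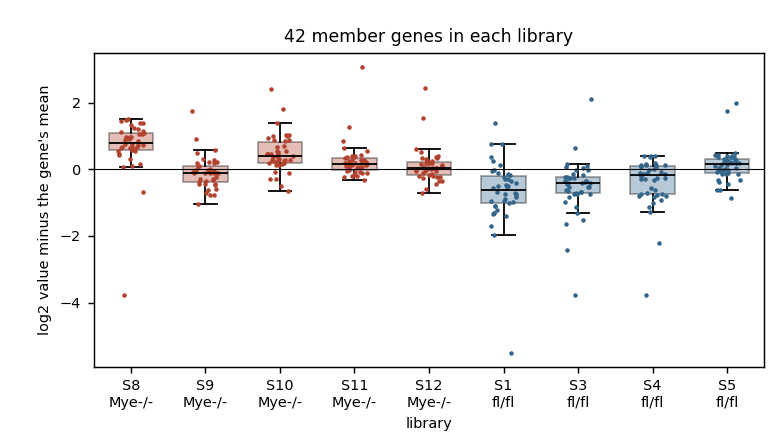
The 42 members in each library (x axis), as the log2 value minus the gene's mean (y axis); boxes span the quartiles with the median as a line, whiskers reach the farthest point within 1.5 box lengths, and points are members. The medians are 0.81, -0.11, 0.40, 0.16 and 0.03 in Mye-/- S8 to S12 and -0.63, -0.41, -0.18 and 0.16 in the fl/fl libraries S1, S3, S4 and S5, so the genotypes overlap.

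Interferon genes themselves were nearly absent from the sorted macrophages. Of 21 interferon genes listed, 18 were at 0 in all 9 libraries and 1 passed the filter. Ifnb1 had 0 reads in all 5 Mye-/- libraries and in fl/fl S1, S4 and S5, which allows up to 3 reads each, or 2.41 to 3.48 normalized reads. In fl/fl S3 it had 784 normalized reads, from 657 reads, in the library that also had the highest Cxcl10. Ifng, the type II interferon, had 0, 46.6, 0, 94.0 and 0 normalized reads in Mye-/- S8 to S12, against 62.7, 74.0, 104.7 and 12.3 in fl/fl, and it did not pass the test (limma adjusted p = 0.522).

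Receptor and kinase transcripts stood close to each other in both genotypes. Of 8 tested, 7 were positive, beside 54.6% of all features, and the median log2 fold change was 0.12. At an unadjusted p under 0.05, 0 were higher, beside 6.38% of all features, and 0 were lower. Ifnar1 had 2427, 3823, 3180, 3289 and 3055 normalized reads in Mye-/- S8 to S12, against 1541, 2824, 3904 and 2949 in fl/fl, and S8, the library with the highest members, had the lowest Mye-/- value (0.23 ± 0.22 SE, limma adjusted p = 0.742). Ifnar2 had 3279, 3458, 3309, 3661 and 3723 in Mye-/-, against 4010, 3355, 3319 and 3107 in fl/fl (0.02 ± 0.14 SE). These subunits form the type I receptor, and their ranges overlapped between genotypes. Jak2, a kinase of the interferon gamma receptor, had 4741, 4912, 4672, 5454 and 5695 in Mye-/-, against 2612, 4873, 3873 and 5318 in fl/fl (0.34 ± 0.18 SE). Ifngr2, a subunit of that receptor, had 4857, 3910, 5162, 5347 and 6311 in Mye-/-, against 3994, 4851, 4679 and 3641 in fl/fl (0.25 ± 0.15 SE).

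Of the 8 STAT and IRF genes, 6 were positive, beside 54.6% of all features. At an unadjusted p under 0.05, 2 were higher, beside 6.38% of all features. They were Stat2 and Irf7, both of which are themselves interferon targets. Stat2 had 12067, 7751, 9201, 7420 and 6235 normalized reads in Mye-/- S8 to S12, against 2952, 5579, 5912 and 7788 in the fl/fl libraries S1, S3, S4 and S5. The order of libraries was like that of the members, with S8 highest and S1 lowest (0.66 ± 0.23 SE, limma adjusted p = 0.326). Irf7, the factor that amplifies interferon alpha production, had 16002, 9453, 12314, 10075 and 8384 in Mye-/-, against 5722, 6277, 9396 and 8428 in fl/fl (0.58 ± 0.19 SE, adjusted p = 0.295). Mye-/- S12 was the only one of its genotype below fl/fl S5.

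Irf9, the DNA-binding partner in the ISGF3 complex, overlapped between genotypes. It had 5323, 3954, 4832, 4661 and 4563 normalized reads in Mye-/- S8 to S12, against 3185, 4949, 4313 and 4598 in the fl/fl libraries S1, S3, S4 and S5 (0.14 ± 0.15 SE, limma adjusted p = 0.777). Irf1, a factor induced mainly by interferon gamma, had 3560, 3670, 3582, 4158 and 3064 in Mye-/-, against 3533, 3873, 1717 and 2687 in fl/fl (0.35 ± 0.20 SE). The 7 brakes on the pathway had a median log2 fold change of 0.02, with 4 positive, beside 54.6% of all features. At an unadjusted p under 0.05, 0 were higher, beside 6.38% of all features, and 0 were lower. Ptpn11, a phosphatase and the brake with the smallest p, had 1610, 1799, 1228, 1479 and 1802 in Mye-/-, against 949, 1636, 1363 and 1544 in fl/fl (0.22 ± 0.20 SE).

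Nucleic acid sensors and adaptors act upstream of interferon and are also induced by it. Of these, 10 of 12 were positive, beside 54.6% of all features, with a median log2 fold change of 0.41. At an unadjusted p under 0.05, 4 were higher, beside 6.38% of all features. Ifih1, which encodes MDA5, had 4555, 2946, 3893, 3426 and 2732 normalized reads in Mye-/- S8 to S12, against 2077, 2058, 1982 and 2483 in the fl/fl libraries S1, S3, S4 and S5. The groups did not overlap (0.69 ± 0.17 SE, limma adjusted p = 0.218, DESeq2 adjusted p = 0.0260). Ddx58, which encodes RIG-I, had 3252, 2065, 3232, 2286 and 2522 in Mye-/-, against 840.3, 1193, 2577 and 1616 in fl/fl, where S4 alone reached the Mye-/- range (0.88 ± 0.25 SE, limma adjusted p = 0.256).

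**Figure D5:**
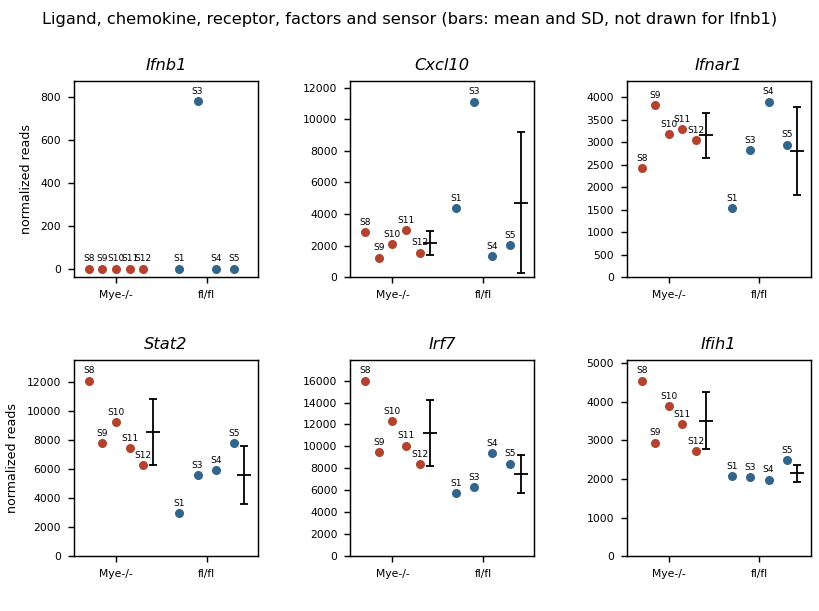
Normalized reads (y axis, linear) of Ifnb1, Cxcl10, Ifnar1, Stat2, Irf7 and Ifih1 in each library, Mye-/- in red and fl/fl in blue, with bars for mean and SD except for Ifnb1. Ifnb1 is at 0 in 8 libraries and at 784 in fl/fl S3, which is also highest for Cxcl10, while Ifih1 separates the genotypes.

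Genes that lean towards interferon gamma, such as the guanylate-binding proteins, had a median log2 fold change of 0.22, with 11 of 15 positive, beside 54.6% of all features. Some of these signs rest on low values. Cxcl9 was at 0.98 with limma but -1.05 with edgeR, and averaged 143 in Mye-/- and 299 in fl/fl. Gbp2 and Gbp3, the most abundant guanylate-binding protein genes listed, were at -0.17 and -0.13, while Gbp4, Gbp5, Gbp6 and Gbp7 were positive. At an unadjusted p under 0.05, 1 of the 15 was higher, a share near the 6.38% of all features. That gene was Irgm1, an immunity-related GTPase, with 8048, 3188, 6063, 5422 and 4277 normalized reads in Mye-/- S8 to S12, against 3741, 2741, 4175 and 3715 in fl/fl (0.53 ± 0.21 SE, limma adjusted p = 0.393). Gbp6, the next by p, was low, with 170.5, 71.5, 33.9, 247 and 59.8 in Mye-/-, against 291, 0, 0 and 53.6 in fl/fl. Its log2 fold change was 3.03 with limma and 0.44 with edgeR.

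Relatives of the member families that are no members had 19 of 22 positive, beside 54.6% of all features, and a median of 0.33. At an unadjusted p under 0.05, 6 were higher, beside 6.38% of all features. Of these 6, Phf11c shares its feature with Phf11d. Ifi203, a HIN-200 gene, had 6017, 3663, 5511, 5202 and 4283 normalized reads in Mye-/- S8 to S12, against 2546, 2171, 3259 and 3890 in fl/fl, with S9 alone under fl/fl S5 (0.75 ± 0.18 SE, limma adjusted p = 0.218, DESeq2 adjusted p = 0.0423). Slfn4, a Schlafen gene of myeloid cells, had 13400, 9101, 10009, 8534 and 6279 in Mye-/-, against 3150, 6040, 5461 and 7902 in fl/fl, with S12 alone under fl/fl S5 (0.78 ± 0.23 SE, limma adjusted p = 0.256). No difference between one list and another was tested.

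Markers of other cells were read beside the members. The sorted cells carried the genes of their gate, with Itgam at 49711 ± 4679 in Mye-/- and 48739 ± 7072 in fl/fl, and Adgre1 at 6443 ± 1054 in Mye-/- and 5433 ± 658 in fl/fl. Lyz2, the lysozyme of myeloid cells, was lower in every Mye-/- library than in any fl/fl library, at 169027 ± 24893 in Mye-/- and 308919 ± 83367 in fl/fl (adjusted p = 0.218 with limma, 0.086 with edgeR and 8.13e-05 with DESeq2). Of the plasmacytoid dendritic cell markers, whose cells are known as strong interferon alpha producers, Siglech, Pacsin1 and Cox6a2 were at 0 in all 9 libraries. Ccr9 was at 0 in Mye-/- and at 53.4 and 26.4 in fl/fl S1 and S5, and Klk1 was at 32.2 in Mye-/- S10, 28.7 in fl/fl S3 and 0 elsewhere. The sum of these 6 markers, 1229 to 1665 in Mye-/- and 793 to 2042 in fl/fl, was nearly all Lair1, which other leukocytes also express. The summed Kupffer cell markers ran from 205 to 1821 in Mye-/- (highest in S10) and from 7.16 to 463.5 in fl/fl. Of 4 tested, 4 were higher in Mye-/-, beside 54.6% of all features. With limma, 3 of them (Clec4f, Cd5l and Marco) were at an unadjusted p under 0.05, beside 6.38% of all features. For the same 3, unadjusted p-values were 0.0618, 0.0826 and 0.358 with edgeR, and 0.0266, 0.0521 and 0.34 with DESeq2. Clec4f and Vsig4 passed the filter mainly through Mye-/- libraries, since S5 alone of the fl/fl libraries reached 10. With such low fl/fl values, the limma fold changes depend on the pseudocount. Clec4f, a Kupffer cell lectin, had 0 reads in 3 fl/fl libraries (S1, S3 and S4), and Timd4 was at 0 in all libraries but Mye-/- S12. The summed monocyte markers ran from 400892 to 687561 in Mye-/- (highest in S8) and from 374417 to 586341 in fl/fl. Chil3 and Plac8 made up most of each sum. Of 5 tested, 2 were higher in Mye-/-, beside 54.6% of all features. Ly6c2 averaged 9994 ± 969 in Mye-/- and 12302 ± 1480 in fl/fl (log2 fold change -0.30). It alone of the 5 was lower at an unadjusted p under 0.05 (limma), beside 4.13% of all features. Hepatocyte markers summed to 11272 in Mye-/- S10, 1274 to 2150 in the other Mye-/- libraries and 635 to 1923 in fl/fl. Of 7 tested, 7 were higher in Mye-/-, beside 54.6% of all features, 4 of them at an unadjusted p under 0.05 (limma), beside 6.38%. Of these 4, Ttr, Fgg and Rbp4 were at 0 in some fl/fl libraries, where the pseudocount weighs on the fold change. Their unadjusted edgeR p-values were 0.172, 0.146 and 0.112, against 0.00605 for Hpx, the other of the 4. Alb had an unadjusted p of 0.0552 with limma and 0.0191 with edgeR. Of the hepatocyte markers not tested, Cyp2e1 was at 0 in all Mye-/- libraries and at 65.0 and 7.91 in fl/fl S1 and S5. Apoc3 was at 0 in all fl/fl libraries and at 21.7, 161 and 17.1 in Mye-/- S9, S10 and S11. Neutrophil markers summed to 12198 to 33736 in Mye-/- and 24790 to 45050 in fl/fl, and these sums were nearly all S100a8 and S100a9. Of 4 tested, 3 were lower in Mye-/- with limma, and Retnlg was higher (log2 fold change 1.41). Mpo was among the lower genes with limma (-1.21) but was at 1.35 with edgeR. Among those not tested, Camp averaged 43.3 in Mye-/- and 0 in fl/fl, and Ngp 50.8 in Mye-/- and 3.77 in fl/fl. Ltf averaged 39.8 in Mye-/- and 96.9 in fl/fl, and Ly6g was at 0 in all libraries but fl/fl S3 (1.19). S100a8 (log2 fold change -0.81) and S100a9 (-1.31) were lower at an unadjusted p under 0.05 (limma), beside 4.13% of all features. Erythroid markers summed to 2344 to 6567 in Mye-/- and 5525 to 35097 in fl/fl. Of 5 tested, 0 were higher, beside 54.6% of all features, and 4 were lower at an unadjusted p under 0.05 (limma), beside 4.13%. T and NK cell markers summed to 60.9 to 524.5 in Mye-/- and 42.9 to 520.6 in fl/fl, B cell markers to 71.6 to 166 in Mye-/- and 137 to 175.5 in fl/fl, and endothelial markers to 427 to 659 in Mye-/- and 312 to 1074 in fl/fl. Mitochondrial features took 3.93% to 7.09% of reads in Mye-/- and 3.49% to 9.45% in fl/fl, and fl/fl S3 had the highest share. The part of these differences in the member values was not tested.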

How the data were processed

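Gene expression was measured by RNA sequencing of 9 libraries (5 MAGL Mye-/- and 4 MAGL fl/fl). The deposited table holds a signal, namely read counts that the authors divided by 1 DESeq size factor per library, per the file headers. The submitters' processing notes name DESeq, STAR 2.4.0, SAMtools, Picard, FastQC and mm10, and the headers name FAST DB gene models. The sources used here do not give how reads were counted (tool, strand, duplicates, multi-mapping). Reads of overlapping, antisense or near-identical genes can therefore not be told apart. Levels per kb used GENCODE M21 exon lengths (GRCm38, the assembly of mm10), and shared sequence was the share of a gene's 50-letter transcript words found in other genes.

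Genotypes were compared with limma 3.58.1 in R 4.3.3, two-sided and with its intensity trend, on log2(value + 1). The 15288 features that reached 10 in at least 4 libraries were tested, with a Benjamini-Hochberg adjusted p under 0.05 as threshold. The script was tested on simulated counts with planted changes. Values were whole multiples of 1 read (100% of nonzero values, within 0.01 reads), and edgeR 4.0.16 and DESeq2 1.42.0 were run on those reads as alternatives. Over all features limma called 3 higher and 0 lower, edgeR 2 higher, and DESeq2 91 higher and 55 lower. Further alternatives changed the pseudocount to 0.5 or 8, the filter, the scaling (TMM) or the trend, added age or detected features as a term, kept 11-week-old mice only, or left out each library. All 9 table columns matched a sample.

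Members were fixed by name, but they, the gene lists and the tests were chosen with earlier results of these data known. Values in every library are given for the members with the smallest p of each family or role (1, or 2 for groups of at least 4), for Isg15, Cxcl10, Mgll and set pathway genes, and for up to 2 further genes with the smallest p per pathway list. The values of 1 listed pathway gene are not reported here. Other members are given by means, ranges or fold changes.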

Additional observations from a re-analysis of the deposited data

Results flagged for a closer look

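Of 84 sets of replicate values (42 members in 2 genotypes), 4 held a library whose distance from its nearest neighbour, relative to the range of its group on the log2(value + 1) scale, passed Dixon's 95% limit, about as many as chance flags at 1 in 20. Ifi44 was at 0 in Mye-/- S8, with 45.8, 47.5, 114 and 39.3 normalized reads in S9, S10, S11 and S12. Herc6 was at 367 in Mye-/- S12, with 893, 1040, 1117 and 861 in S8 to S11. Samd9l was at 17075 in Mye-/- S8, with 9556, 8830, 9130 and 8305 in S9 to S12. Parp9 was at 3130 in fl/fl S5, with 2455, 2514 and 2461 in S1, S3 and S4.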

How the results depend on the processing

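No paired analysis was possible because the genotypes share no replicate numbers. The number of features limma called higher (3) was 12 with a pseudocount of 8, 6 with TMM scaling, 20 without the trend, 91 with DESeq2, 7 without fl/fl S1 and S3, 0 with an age term, a detected-features term or in 11-week-old mice, and 0 to 12 leaving out 1 library. The number called lower (0) was 5 with a pseudocount of 8, 1 without the trend, 55 with DESeq2, 2 without fl/fl S1 and S3, and 0 to 8 leaving out 1 library. DESeq2 called 1 member (Ifit2). Members higher at an unadjusted p under 0.05 (22) numbered 12 with detected features as a covariate, 11 without the trend, 9 without fl/fl S1 and S3, and 14 (without fl/fl S1) to 27 leaving out 1 library, and 1 was lower with edgeR. Members without overlap (3) numbered 10 in 11-week-old mice, 6 without fl/fl S1 and S3, and 3 to 12 leaving out 1 library. The matching shares of all features were not counted, and with fewer libraries any feature separates more easily. The median log2 fold change (0.62) ran from 0.44 to 0.73 leaving out 1 library.

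Of 881 pairs of a member and a setting, 860 kept their sign. The others were Ifi44 -0.01, Ifi205 0.26 and Ifitm3 0.00 with an age term, which gives the 11-week-old mice's estimates by construction, Ifi44 -0.07 with detected features, Ifi205 0.08 without Mye-/- S9, 0.01 without Mye-/- S10 and 0.02 without fl/fl S5, and Ifi35 -0.01, Ifi205 0.14 and Ifi27l2a -0.03 without fl/fl S1. Leaving out 1 library, these 3 ran from -0.01 to 0.50, from -0.36 to 0.14 and from -0.03 to 0.21. Without fl/fl S1 and S3 they were Oas3 -0.06, Oasl2 -0.09, Ifi35 -0.21, Phf11b -0.09, Sp100 -0.01, Ifi27l2a -0.06, Epsti1 -0.02 and Cxcl10 0.29, and 32 members were positive. The cause was not tested.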
